A study of Mus musculus with 16 samples.

Results

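The interleukin-1 (IL-1) family was examined in mouse spinal cord through 10 genes for its cytokines, antagonists, receptors and a signalling kinase, namely Il1a, Il1b, Il18, Il33, Il1rn, Il18bp, Il1r1, Il1rap, Il1rl2 and Irak4. They were taken by gene symbol from an expression table of 18167 genes, which held all 10. IL-1α and IL-1β bind the same receptor, Il1r1, which pairs with the accessory chain Il1rap and signals through MyD88 and the IRAK kinases toward NF-κB, while IL-36 binds Il1rl2 with the same accessory chain. IL-1β and IL-18 are made as precursors that caspase-1 cleaves within inflammasomes, and secreted antagonists (Il1rn and Il18bp) limit their action. In the central nervous system, IL-1 is known mainly as a product of activated microglia and infiltrating myeloid cells, and IL-33 as a nuclear alarmin of oligodendrocytes and astrocytes.

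RNA of whole spinal cords from 16 transgenic mice in 4 groups had been sequenced, with 1 library per mouse. Both strains expressed human profilin 1 from the MoPrP.Xho vector, which carries the promoter of the mouse prion protein gene, so that every group was transgenic. Which cell types expressed the transgene was not examined. MO mice (n = 5, 175 to 245 days old) and MY mice (n = 3, 50 days old) carried the G118V mutation linked to amyotrophic lateral sclerosis, as line 838Kiaei/J of the transgene Tg(Prnp-PFN1*G118V) on C57BL/6N. WO mice (n = 5, 190 to 294 days old) and WY mice (n = 3, 50 days old) carried the human wild-type protein, as line 850Kiaei/J of the transgene Tg(Prnp-PFN1) on C57BL/6N. Each genotype came from a single line, so the mutation cannot be told apart from other differences between the lines. All mice were labelled male. MO mice were at the end stage of disease, defined by failure to right themselves within a set time, and MY mice were presymptomatic. The libraries came in 2 batches: MO4, MO5, WO4 and WO5 formed batch 2, and the other 12 libraries batch 1. Since WO4 and WO5 were 294 days old and the other WO mice 190 days old, age and batch cannot be told apart among WO mice. Batch 2 held no young mice, so MY vs. MO and WY vs. WO set groups of mixed batch against batch 1 alone. WO4 and WO5 were also older than MO4 (224 days) and MO5 (175 days), so differences within batch 2 are not age-matched.

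Expression values were log2(1 + FPKM), where FPKM is fragments per kilobase of transcript, adjusted for the number of mapped fragments, after adjustment for batch by the authors. The read depth behind a single gene was unknown, and the spread between mice was the measure of error. A log2 fold change is the mean of the second named group minus that of the first on this scale, which understates the change of a gene with an FPKM near or below 1. Genes were called differentially expressed when the false discovery rate (FDR), taken over all 18167 genes, was 0.05 or lower and the fold change was 1.5 or more in either direction. An unadjusted p under 0.05 in limma was reached by 6673 of all genes in MY vs. MO and 6986 in WO vs. MO. It was reached by 2447 in WY vs. WO and 1301 in WY vs. MY, and list counts at that level are to be read beside these.

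The library labelled MO5 went against its male label. Xist, the RNA of the inactive X chromosome, stood at 3.21 in MO5 and at no more than 0.37 in the other 15 libraries. The Y-linked gene Ddx3y stood at 1.95 in MO5 and at no less than 4.06 in the others. The changes of the 10 genes in comparisons with MO mice are therefore also given without MO5, and the origin of its values was not tested.

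On the per-length FPKM scale, the family spanned a wide range of levels in the healthy young cord. In WY mice the mean FPKM was 60.4 for Il33, 31.9 for Il18 and 19.6 for Il1rap, and each of these stood apart from the next without overlap between mice. Il18bp followed at 2.91, Irak4 at 1.43, Il1r1 at 0.803 and Il1a at 0.600, again without overlap. The lowest mean FPKM values were those of Il1rl2 (0.177), Il1b (0.134) and Il1rn (0.0482), and the mice of Il1rl2 and Il1b overlapped. In MO mice Il33 (mean FPKM 63.6), Il18 (27.1) and Il1rap (13.2) still led, and Il18bp (4.52) came next again. The following FPKM means, of Irak4 (2.32), Il1r1 (1.94) and Il1a (1.78), overlapped between mice and were not separable, nor were those of Il1b (0.722) and Il1rl2 (0.609), and Il1rn (0.349) had the lowest mean.

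At the end stage, the IL-1 agonists, both antagonists, the signalling receptor Il1r1, the IL-36 receptor and Irak4 all had higher RNA levels than in either MY or WO mice, whereas Il18 and Il33 did not. The accessory chain Il1rap was lower than in MY mice. In MY vs. MO, 3 of the 10 genes were called higher (Il1a, Il1r1 and Il18bp), against 4.11% of all genes, and 1 lower (Il1rap), against 0.787%. At an FDR of at most 0.05 with a change of any size, 7 were higher, against 13.1% of all genes, and 1 was lower, against 12.5%. The same 7 genes had every MO mouse above every MY mouse, which held for 15.7% of all genes, and Il1rap had every MO mouse below every MY mouse, as did 15.9%.

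The comparison with old controls gave 4 genes called higher in WO vs. MO (Il1a, Il1b, Il1r1 and Il18bp), against 4.08% of all genes, and 0 called lower in limma, against 0.517%, with Il1rap the only gene lower at an unadjusted p under 0.05. At an FDR of at most 0.05 regardless of size, 7 of the 10 were higher, against 15% of all genes. In all 7 the MO and WO mice did not overlap, as was the case, in the higher direction, for 11.3% of all genes. The median log2 fold change of the 10 genes was 0.37 in MY vs. MO and 0.46 in WO vs. MO, beside 0.0047 and 0.00035 over all genes. Both comparisons share the MO mice, so their values are not independent of each other. Without MO5, 5 genes were called in MY vs. MO, since Il1b then passed the fold change threshold, and 4 in WO vs. MO. Il1rap in MY vs. MO remained the only member called lower. Of all genes, 746 were then called higher and 168 lower in MY vs. MO, and 742 and 113 in WO vs. MO.

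**Figure D1:**
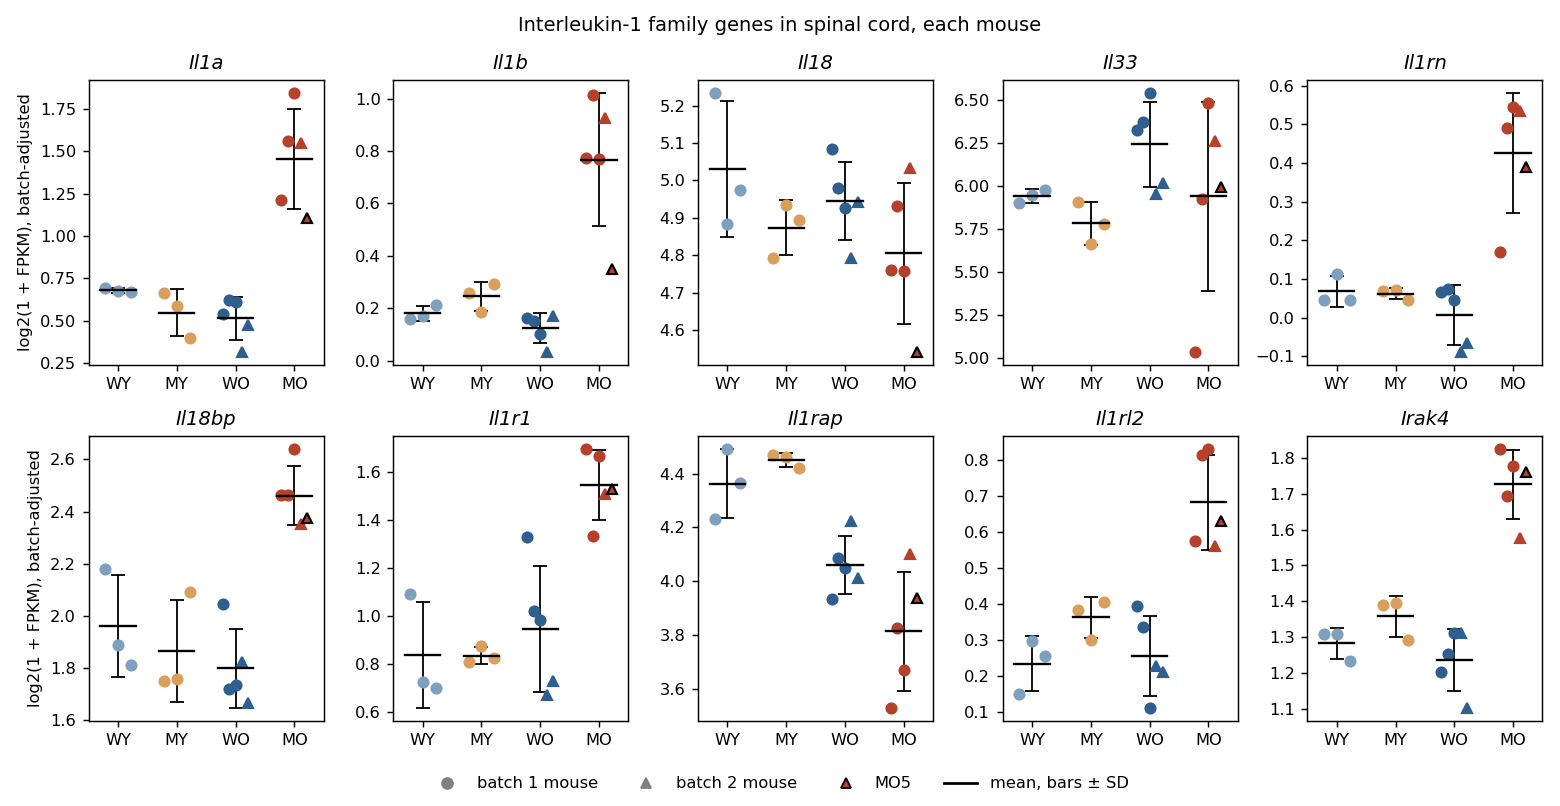
Batch-adjusted log2(1 + FPKM) (vertical axes, which differ in range and do not start at 0) of the 10 IL-1 family genes in each WY, MY, WO and MO mouse; circles are batch 1 and triangles batch 2 mice, black outlines mark MO5, and lines and bars show the group mean ± SD. In 7 of the 10 panels the 5 MO mice lie above all WO and all MY mice, while those of Il18 and Il33 overlap with both groups.

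Among the agonist ligands, Il1a encodes IL-1α, a cytokine that is active without caspase-1 cleavage and also acts as an alarmin of damaged cells. Its log2(1 + FPKM) was 1.21 in MO1, 1.56 in MO2, 1.84 in MO3, 1.55 in MO4 and 1.11 in MO5. It was 0.54, 0.62, 0.61, 0.32 and 0.47 in WO1 to WO5, 0.66, 0.58 and 0.40 in MY1 to MY3, and 0.69, 0.68 and 0.67 in WY1 to WY3. MO3 was highest and MO5 lowest of the end-stage mice, and all of them stood above the other 11 mice. On this scale Il1a had the largest increase of the 10 genes in both comparisons, with a log2 fold change of 0.91 ± 0.16 (SE; FDR = 0.0046) in MY vs. MO and 0.94 ± 0.13 (FDR = 0.00039) in WO vs. MO. With a pseudocount of 0.1 in place of 1, Il1b exceeded Il1a in WO vs. MO (2.05 and 1.81). Within batches, MO exceeded WO by 0.95 in batch 1 and by 0.93 in batch 2. Without MO5 the log2 fold changes of Il1a were 0.99 and 1.03, in the same order. In RNA of a whole tissue, more cells of a type cannot be told apart from more RNA per cell, nor fewer cells from less RNA per cell.

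Il1b encodes IL-1β, the secreted agonist that depends on inflammasome cleavage. Its log2(1 + FPKM) was 0.77, 1.01, 0.77, 0.93 and 0.35 in MO1 to MO5, and 0.16, 0.15, 0.10, 0.03 and 0.17 in WO1 to WO5. In the young groups it was 0.26, 0.18 and 0.29 in MY1 to MY3 and 0.16, 0.17 and 0.21 in WY1 to WY3. MO5 was the lowest of the end-stage mice and only slightly above MY3, the highest of the mice outside MO. The increase was 0.64 ± 0.11 (FDR = 0.0012) in WO vs. MO, a fold change of 1.56, and 0.52 ± 0.13 (FDR = 0.022) in MY vs. MO, a fold change of 1.43 that missed the threshold. Without MO5 the log2 fold changes of Il1b rose to 0.75 and 0.62, and both were called. In MY vs. MO, Il1b was also called in batch 1 mice only (0.61, FDR = 0.0029) and with a pseudocount of 0.1 (1.44, FDR = 0.018). The same held with a block for the replicate number (0.61, FDR = 0.014). The difference between MO and WO was 0.71 in batch 1 and 0.54 in batch 2. In WO vs. MO the log2 fold change of Il1b was 0.58 without MO2 and 0.58 after quantile normalization, both short of the fold change threshold.

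Il18 and Il33, the most abundant ligands, were not called in any comparison. Il18, whose product drives interferon-γ production together with IL-12, had a log2(1 + FPKM) of 4.76, 4.93, 4.76, 5.03 and 4.54 in MO1 to MO5. The other groups ranged from 4.79 to 5.08 (WO), 4.79 to 4.94 (MY) and 4.88 to 5.23 (WY), so that all 4 groups overlapped. The log2 fold change of Il18 was −0.07 (95% confidence interval −0.30 to 0.17) in MY vs. MO and −0.14 (−0.34 to 0.06) in WO vs. MO. These intervals do not reach a fold change of 1.5 in either direction. Without MO5 the log2 fold changes of Il18 were −0.0034 and −0.07. MO minus WO was −0.18 in batch 1 and −0.08 in batch 2.

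The alarmin gene Il33 varied most among end-stage mice, with a log2(1 + FPKM) of 5.03, 5.92, 6.48, 6.26 and 5.99 in MO1 to MO5. In WO1 to WO5 it was 6.32, 6.37, 6.54, 5.95 and 6.02, while MY mice ranged from 5.66 to 5.91 and WY mice from 5.90 to 5.98. MO1 was the lowest of all mice and WO3 the highest. The log2 fold change of Il33 was 0.16 (95% confidence interval −0.49 to 0.80) in MY vs. MO and −0.30 (−0.83 to 0.22) in WO vs. MO, so that changes past a fold change of 1.5 were not excluded by these intervals. Without MO5 these values of Il33 were 0.14 and −0.32. The difference between MO and WO had opposite signs in the batches, −0.60 in batch 1 and 0.14 in batch 2. In WY vs. WO, Il33 was higher by 0.30 ± 0.13 (FDR = 0.36), and when only batch 1 mice were fitted by 0.47 (FDR = 0.042), below the fold change threshold.

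The antagonists were higher at the end stage. Il1rn encodes the IL-1 receptor antagonist, which occupies Il1r1 without recruiting the accessory chain. Its log2(1 + FPKM) was 0.17, 0.49, 0.54, 0.53 and 0.39 in MO1 to MO5, and in the other 11 mice it ranged from −0.09 in WO4 to 0.11 in WY2, where values below 0 are a product of the batch adjustment. MO1 was the lowest of the end-stage mice and still above all others. Il1rn was higher by 0.36 ± 0.08 (FDR = 0.015) in MY vs. MO and by 0.42 ± 0.07 (FDR = 0.0017) in WO vs. MO, fold changes of 1.29 and 1.34 on a scale where its FPKM stayed below 1. With a pseudocount of 0.1 in place of 1, the log2 fold changes of Il1rn were 1.58 and 1.78, and both were called. The size of these folds depends on the pseudocount, because MY3, WO3, WY1 and WY3 shared a value of 0.0447 and WO4 and WO5 were set to an FPKM of 0. Without MO5 the changes of Il1rn were 0.37 and 0.43 on the original scale. MO exceeded WO by 0.34 in batch 1 and by 0.54 in batch 2.

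Il18bp encodes a soluble decoy that binds IL-18. Its log2(1 + FPKM) was 2.46, 2.46, 2.64, 2.35 and 2.38 in MO1 to MO5, and 2.05, 1.72, 1.73, 1.82 and 1.67 in WO1 to WO5. The young mice stood at 1.75, 1.76 and 2.09 (MY1 to MY3) and at 2.18, 1.89 and 1.81 (WY1 to WY3). End-stage mice were closely grouped above all others, of which WY1 came nearest. Il18bp was higher by 0.66 ± 0.08 (FDR = 0.00016) in WO vs. MO, with 0.69 in batch 1 and 0.62 in batch 2, and by 0.59 ± 0.09 (FDR = 0.0029) in MY vs. MO. The second value lay just past the fold change threshold. It fell short of it without MO3 (0.55), without MY1 (0.54), without MY2 (0.54) and after quantile normalization (0.51), whereas without MO5 it was 0.62. With limma treat, which tests against a fold change of 1.2 and calls by the FDR alone, this call was also lost (FDR = 0.079).

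To compare each antagonist with its cytokine, their log2(1 + FPKM) values were subtracted within each mouse. Il18bp minus Il18 was −2.29, −2.47, −2.12, −2.68 and −2.17 in MO1 to MO5, above all WO mice (−3.28 to −2.97) and all MY mice (−3.18 to −2.80). The difference of its means was 0.80 between WO and MO mice (exact permutation test, two-sided, p = 0.0079, adjusted p = 0.063 over 8 tests) and 0.66 between MY and MO mice (exact p = 0.018, adjusted p = 0.071). Both p-values were the smallest these group sizes allow, and neither passed the adjustment. Il1rn minus Il1b averaged −0.34 ± 0.26 in the 5 end-stage mice, with MO5 (0.04) the only mouse of all 16 above 0. The averages were −0.12 ± 0.07 in old wild-type mice, −0.18 ± 0.07 in young mutant mice and −0.11 ± 0.06 in young wild-type mice (SD). The exact permutation p was 0.11 for WO vs. MO (adjusted p = 0.30) and 0.36 for MY vs. MO (adjusted p = 0.52). With a pseudocount of 0.1 the direction in MY vs. MO turned, from a difference of means of −0.16 to 0.13 for Il1rn minus Il1b. Without MO5 the difference of means for Il1rn minus Il1b was −0.25 in MY vs. MO and −0.32 in WO vs. MO, and without MO1 it was −0.09 in MY vs. MO. For Il18bp minus Il18 the values without MO5 were 0.62 and 0.76. For WY vs. MY, where 3 mice met 3, no p below 0.10 was possible, and p was 0.20 for Il1rn minus Il1b and 0.80 for Il18bp minus Il18. The remaining comparison, WY vs. WO, gave an exact p of 0.93 for Il1rn minus Il1b and of 0.39 for Il18bp minus Il18.

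The receptors moved in different directions. Il1r1, the signalling receptor for both IL-1 agonists, had a log2(1 + FPKM) of 1.70, 1.33, 1.67, 1.51 and 1.53 in MO1 to MO5. It was 1.33, 1.02, 0.98, 0.67 and 0.73 in WO1 to WO5, 0.81, 0.87 and 0.83 in MY1 to MY3 and 1.09, 0.72 and 0.70 in WY1 to WY3. WO1 nearly reached MO2, the lowest of the end-stage mice, whereas MY mice were tightly grouped well below. Il1r1 was higher by 0.71 ± 0.08 (FDR = 0.00067) in MY vs. MO and by 0.60 ± 0.12 (FDR = 0.0039) in WO vs. MO. The WO vs. MO call lay close to the fold change threshold: MO exceeded WO by 0.46 in batch 1 (FDR = 0.068 when only these mice were fitted) and by 0.82 in batch 2. It also fell short without MO1 (0.56), MO3 (0.57), WO4 (0.53) or WO5 (0.55) and after quantile normalization (0.50). With limma treat the WO vs. MO call was lost as well (FDR = 0.14). Without MO5 the log2 fold changes of Il1r1 were 0.72 and 0.61 in MY vs. MO and WO vs. MO, both called.

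Il1rap, the accessory chain shared by the IL-1, IL-33 and IL-36 receptors, was the member that fell. Its log2(1 + FPKM) was 3.53, 3.83, 3.67, 4.10 and 3.94 in MO1 to MO5, and 3.93, 4.09, 4.05, 4.22 and 4.01 in WO1 to WO5. It was 4.47, 4.46 and 4.42 in MY1 to MY3 and 4.23, 4.49 and 4.36 in WY1 to WY3. All MO and all WO mice were below the young mice of their own genotype, and MO and WO mice overlapped. The log2 fold change of Il1rap was −0.64 ± 0.12 (FDR = 0.0054) in MY vs. MO, −0.25 ± 0.10 (FDR = 0.093) in WO vs. MO and −0.30 ± 0.08 (FDR = 0.13) in WY vs. WO. The call in MY vs. MO was lost without MO1 (−0.57) and with limma treat (FDR = 0.11), and without MO5 the value was −0.67. MO minus WO was −0.35 in batch 1 and −0.10 in batch 2.

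Il1rl2, the receptor subunit for IL-36, had a low log2(1 + FPKM) of 0.58, 0.81, 0.83, 0.56 and 0.63 in MO1 to MO5, with ranges of 0.11 to 0.39 in WO, 0.30 to 0.41 in MY and 0.15 to 0.30 in WY mice. It was higher by 0.32 ± 0.08 (FDR = 0.016) in MY vs. MO and by 0.43 ± 0.07 (FDR = 0.0014) in WO vs. MO, below a fold change of 1.5 in both. With a pseudocount of 0.1 in place of 1, the log2 fold changes of Il1rl2 were 0.86 and 1.29, and both were called. Without MO5 these values of Il1rl2 were 0.33 and 0.44, and within batches MO exceeded WO by 0.46 (batch 1) and 0.38 (batch 2).

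Irak4, the kinase that MyD88 recruits first after receptor engagement, changed little in size but with small spread. Its log2(1 + FPKM) was 1.83, 1.69, 1.78, 1.58 and 1.76 in MO1 to MO5, against 1.10 to 1.31 in WO, 1.29 to 1.39 in MY and 1.23 to 1.31 in WY mice. Every end-stage mouse was above every other mouse. Irak4 was higher by 0.37 ± 0.06 (FDR = 0.0035) in MY vs. MO and by 0.49 ± 0.06 (FDR = 0.00014) in WO vs. MO, fold changes of 1.29 and 1.40. Irak4 was called in WO vs. MO with a pseudocount of 0.1 (0.73) and with limma treat (FDR = 0.028), and in the interaction with that pseudocount (0.61). Without MO5 the log2 fold changes of Irak4 were 0.36 and 0.48. The difference between MO and WO was 0.51 in batch 1 and 0.46 in batch 2.

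**Figure D2:**
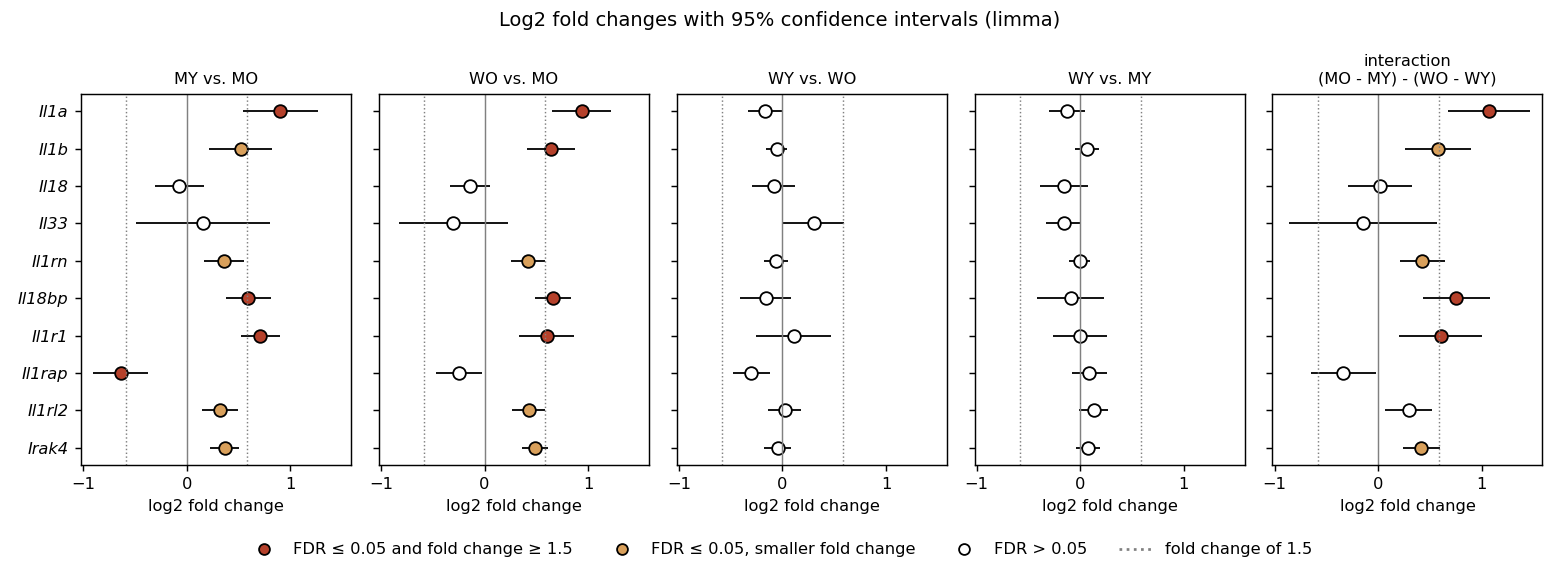
Log2 fold change (horizontal axis) of the 10 IL-1 family genes in each comparison, second group minus first, with 95% confidence intervals from limma; fill shows the FDR and fold change class, and dotted lines mark a fold change of 1.5. Increases past the threshold appear in MY vs. MO, WO vs. MO and the interaction, Il1rap is the only gene called lower, and no gene is called in WY vs. WO or WY vs. MY.

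Aging without the mutation was examined in WY vs. WO, and the mutant line before symptoms in WY vs. MY. In neither was a gene of the family called. In WY vs. WO, 0 of the 10 genes were called by limma, beside 0.0495% of all genes higher and 0.204% lower. An unadjusted p under 0.05 was found for 3, beside 2447 of all 18167 genes. These 3 were Il1a (−0.17 ± 0.07, FDR = 0.36), Il1rap and Il33. In WY vs. MY, 0 were called by limma and 0 had an unadjusted p under 0.05, and the only gene called in the whole table was higher, which is 0.0055% of all genes. The largest WY vs. MY differences among the 10 genes were −0.16 for Il33 (95% confidence interval −0.33 to 0.01) and −0.16 for Il18 (−0.39 to 0.08). The median log2 fold change of the 10 genes was −0.06 in WY vs. WO and −0.0048 in WY vs. MY, beside 0.0018 and −0.0025 over all genes.

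Whether the change with age differed between genotypes was tested as the interaction, (MO − MY) − (WO − WY), over all 16 mice. Il1a, Il18bp and Il1r1 were called, with differences of 1.07 ± 0.19 (FDR = 0.0012), 0.76 ± 0.15 (FDR = 0.0034) and 0.61 ± 0.19 (FDR = 0.038), and called higher were 4.65% of all genes. At an FDR of at most 0.05 regardless of size, 6 were higher, against 10.5% of all genes, the others being Il1b (0.58), Il1rn (0.43) and Irak4 (0.42). Il1rl2 (0.30, FDR = 0.067), Il1rap (−0.33, FDR = 0.13), Il33 (−0.14, FDR = 0.83) and Il18 (0.02, FDR = 0.96) did not pass. The median over the 10 genes was 0.42 and over all genes 0.0073. Without MO5 the interaction of Il1r1 was 0.61 with an FDR of 0.051 and was no longer called, while that of Il1b (0.68, FDR = 0.00016) was. Also without MO5 it was 1.16 for Il1a, 0.78 for Il18bp, 0.43 for Il1rn, 0.41 for Irak4, 0.31 for Il1rl2, −0.37 for Il1rap, −0.16 for Il33 and 0.08 for Il18. The call of Il1r1 was also lost in the batch 1 mice (0.46, FDR = 0.14), where Il1b was called (0.65, FDR = 0.0012), and its FDR was 0.054 without MO1 (log2 0.57), 0.065 without MO3 (0.57), 0.085 without MY1 (0.59), 0.064 without MY2 (0.62) and 0.079 without MY3 (0.60). Among wild-type mice, the FDR of Il1r1 was 0.051 without WO3 (0.61), 0.059 without WO4 (0.54), 0.064 without WO5 (0.55) and 0.12 without WY1 (0.48). With a pseudocount of 0.1 the FDR of Il1r1 was 0.064 (0.99), and after quantile normalization 0.067 (0.49). With limma treat the calls of Il1r1 (FDR = 0.54) and Il18bp (FDR = 0.074) were lost. Il1b passed the fold change threshold without MY3 (0.60), WO1 (0.59), WO5 (0.59) or WY1 (0.59). Of all genes, 845 were called higher and 175 lower in the interaction, and 715 and 277 after quantile normalization. These counts were 730 and 78 without WY1, 926 and 366 without WY2, and 563 and 45 with limma treat.

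The rest of the pathway was described through lists of 74 further gene symbols, of which 63 were in the table. The 74 include current and older names of the same IL-36 genes. In both MY vs. MO and WO vs. MO, 17 of the 63 were called higher, against 4.11% and 4.08% of all genes. In each, 1 was called lower, against 0.787% and 0.517%, and the median log2 fold change was 0.19. The corresponding counts in the interaction were also 17, against 4.65% of all genes, and 1, against 0.963%. In limma, 0 of the 63 were called in WY vs. WO and 0 in WY vs. MY, with 5 and 4 at an unadjusted p under 0.05. The counts with MO mice did not change without MO5.

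Genes of cytokine maturation and release contributed 18 to the table. Of these, 8 were called higher (4.11% and 4.08% of all genes) and 0 lower in both MY vs. MO and WO vs. MO, with medians of 0.46 and 0.45. Pycard, the adaptor ASC of inflammasomes, went from 1.17 ± 0.23 (SD, n = 5) in WO to 2.50 ± 0.26 (n = 5) in MO mice, a log2 fold change of 1.33 (FDR = 7.2e-05), and was higher by 1.35 in MY vs. MO. Casp1, the protease that cleaves IL-1β and IL-18, went from 1.60 ± 0.30 to 2.48 ± 0.13 in WO vs. MO, a log2 fold change of 0.88 (FDR = 0.0007). Casp4, the mouse sensor of intracellular lipopolysaccharide, was higher by 0.85 (FDR = 0.00017), and Naip2, a sensor of bacterial secretion proteins, by 0.96 (FDR = 4.1e-05). After quantile normalization Casp8 fell short of the fold change threshold in MY vs. MO (0.51). The remaining genes called in WO vs. MO were the apical caspase Casp8 (0.80), the flagellin sensor Naip5 (0.77), the pore former Gsdmd (0.71) and the DNA sensor Aim2 (0.71). Aim2 stood at 1.61, 1.79 and 1.34 in WY1 to WY3, which overlapped with MO mice (1.62 to 2.01). Naip2 and Naip5 are close paralogs, and how fragments were divided between them is uncertain. Nlrp3, the sensor most often studied with IL-1β, was higher by 0.45 in WO vs. MO (FDR = 0.00013) without reaching a fold change of 1.5; it was named after its value was seen.

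Genes that IL-1 commonly induces, many of which other stimuli induce as well, included the largest change of the listed genes. Of 18 in the table, 9 were called higher (4.11% and 4.08% of all genes) and 1 lower (0.787% and 0.517%) in both MY vs. MO and WO vs. MO, with medians of 0.63 and 0.53. Timp1, an inhibitor of matrix metalloproteinases, rose from 0.69 ± 0.50 in WO to 4.36 ± 0.37 in MO mice, a log2 fold change of 3.67 (FDR = 1.5e-05). Lcn2, an iron-siderophore binding protein, was higher by 2.31 (FDR = 0.0016), the complement component C3 by 1.92 (FDR = 4e-05) and Socs3, a feedback inhibitor of cytokine receptors, by 1.67 (FDR = 2.2e-05). The chemokines Cxcl10 (1.63) and Ccl2 (1.46), the adhesion molecule Icam1 (1.48), the macrophage growth factor Csf1 (0.68) and the NF-κB inhibitor Tnfaip3 (0.61) were also called. Mmp9, a matrix metalloproteinase, fell by 0.70 (FDR = 5.1e-05). In MY vs. MO, Lcn2 was higher by 2.18 and Tnfaip3 by 0.62, and the FDR exceeded 0.05 without MY1 (0.053 for Lcn2, 0.065 for Tnfaip3) or MY3 (0.051 and 0.060). Without MO1 the log2 fold change of Tnfaip3 was 0.53 in MY vs. MO and 0.53 in WO vs. MO, short of the threshold, as it was after quantile normalization (0.49 and 0.51).

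Receptor signalling genes, by contrast, stayed below the fold change threshold. Of 19, 0 were called by limma in MY vs. MO and 0 in WO vs. MO, and the medians were 0.06 and 0.07. At an unadjusted p under 0.05 were 8 and 6, beside 6673 and 6986 of all 18167 genes. At an FDR of at most 0.05 regardless of size, 7 were higher and 1 lower in MY vs. MO, against 13.1% and 12.5% of all genes, and 5 higher in WO vs. MO, against 15%. The 5 were Nfkb2 (0.45), the adaptor Myd88 (0.42), Relb (0.37), Rela (0.29) and Tab2 (0.22), named after their values were seen. Of the 7 other receptors of the family (Il1r2, Il1rl1, Il18r1, Il18rap, Il1rapl1, Il1rapl2 and Sigirr), 0 were called by limma in MY vs. MO and 0 in WO vs. MO, with 3 and 3 at an unadjusted p under 0.05 and medians of 0.07 and 0.03. At an FDR of at most 0.05 regardless of size, Il1rapl1 was lower in MY vs. MO (−0.21), against 12.5% of all genes. Il1r2 (0.20), Il18rap (0.14) and Il1rl1 (0.12) were higher in WO vs. MO, against 15% of all genes. These receptors were named after their values were seen. Among the remaining ligands and antagonists only Il1f9, which encodes an IL-36 agonist, was in the table, with a log2 fold change of 0.12 in WO vs. MO.

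**Figure D3:**
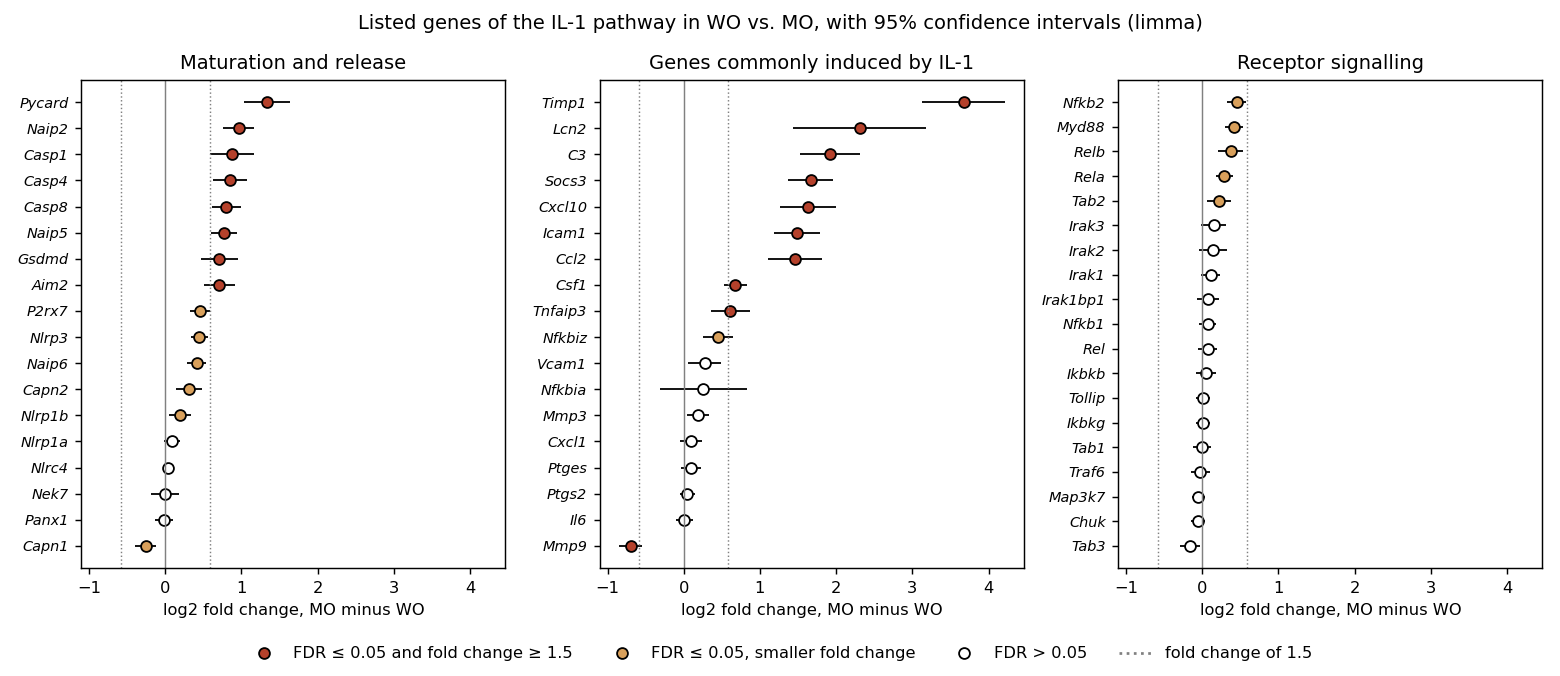
Log2 fold change of MO minus WO mice (horizontal axis) for each listed gene of maturation and release, of genes commonly induced by IL-1 and of receptor signalling, with 95% confidence intervals from limma; dotted lines mark a fold change of 1.5. Called genes number 8 of 18, 10 of 18 and 0 of 19, and Timp1 has the largest change at 3.67.

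Markers of microglia, the main resident source of IL-1 in this tissue, moved with the same comparisons. Of 10 markers, 9 were called higher in MY vs. MO and 8 in WO vs. MO, against 4.11% and 4.08% of all genes (as for the markers called higher below), with median log2 fold changes of 1.33 and 1.37, and without MO5 there were 8 in each. Their summed FPKM was 709, 904, 1106, 629 and 695.5 in MO1 to MO5, and between 166 and 240 in the other mice, with C1qa the most abundant in MO mice. The 2 not called in WO vs. MO were P2ry12 (0.10) and Tmem119 (0.49, FDR = 0.0030). Astrocyte markers were called higher for 3 of 8 in MY vs. MO and 4 of 8 in WO vs. MO, with a summed FPKM of 3594 to 4737 in MO and of at most 2631 in other mice, led by Gfap except in WO1 and WO5 (Aldoc). The part of either cell type in the changes of the IL-1 family was not tested.

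Some oligodendrocyte markers were also lower in MY vs. MO, the comparison in which Il1rap was called lower. Of 8, 3 were called lower in MY vs. MO, 2 in WO vs. MO and 4 in WY vs. WO, against 0.787%, 0.517% and 0.204% of all genes. Cldn11 was higher in WO vs. MO (0.41, FDR = 0.026), below the fold change threshold, and without MO5 4 were lower in MY vs. MO and 0 in WO vs. MO. Their summed FPKM, led by Mbp except in WO4, set the batch 2 mice apart, at 21925 in MO4, 21332 in MO5, 4948 in WO4 and 23575 in WO5, against 6923 to 7536 in MO1 to MO3 and 9230 to 9942 in WO1 to WO3. MY and WY mice lay between 13747 and 16168. Mbp itself had an FPKM of 39.9 in WO4 and of 4571 or more in all other mice. Ugt8a, a galactolipid enzyme of myelin on this list, was the gene with the pattern most like that of Il1rap (Pearson r = 0.97 over 16 mice). Its log2 fold change was −1.53 (FDR = 0.0088) in MY vs. MO and −0.87 (FDR = 0.013) in WY vs. WO. The part of these cells in the change of Il1rap was not tested.

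Of 9 neutrophil markers, 1 (Csf3r, which microglia also express) was called higher in each of MY vs. MO and WO vs. MO, Ly6g was not in the table, and the summed FPKM was 7.12 to 15.7 in MO mice, 40.1 in WO2 and 3.39 to 11.1 in the other 10 mice. Monocyte markers gave 1 of 6 (Fn1) in both comparisons, and 0 of 6 in WO vs. MO without MO5. At an FDR of at most 0.05, 1 and 2 were higher (13.1% and 15% of all genes, also for border macrophages and T cells below). Their sums, led by Vcan or Fn1, reached 21.1 in MO and were 9.37 to 14.9 in other mice. Every MO mouse was above all of these. The other markers, Ccr2, Ly6c2, Plac8 and Chil3, had a log2(1 + FPKM) of at most 0.35 in MO and 0.41 in other mice. The sums therefore mostly reflect Vcan and Fn1. Border macrophage markers gave 1 of 6 (Ms4a7) in both, with 3 and 3 higher at an FDR of at most 0.05 and sums of 2.93 to 8.60 in MO mice and at most 1.81 in the others. T cell markers gave 0 of 6 in both comparisons by limma, with 2 and 3 at an unadjusted p under 0.05, and Trac was not in the table. At an FDR of at most 0.05 regardless of size, 0 and 3 of these were higher, and the summed FPKM was 0.801 to 1.27 in MO and 0.338 to 0.762 in other mice. Of 6 mast cell markers none was in the table. Red blood cell genes gave 0 of 4 in both, with 0 and 1 at an unadjusted p under 0.05. Their sum was 11.7 in MO1 and 43.3 to 96.8 in the other mice. Of these genes, Hba-a2 and Hbb-bs stayed near 0 in all mice and could not be called. Their log2(1 + FPKM) in WO5, for example, was 0.0115 and 0.0033.

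Neuron markers gave 0 of 6 called by limma in MY vs. MO and 0 in WO vs. MO, with 5 and 4 at an unadjusted p under 0.05, of which 4 and 4 were lower at an FDR of at most 0.05 (12.5% and 12.9% of all genes, also for the markers below), and medians of −0.22 and −0.29. Of 6 motor neuron markers, 0 were called in MY vs. MO (4 at an unadjusted p under 0.05 in limma) and 1 (Chat, the acetylcholine-synthesizing enzyme) was lower in WO vs. MO, against 0.517% of all genes. Regardless of size, 4 of them were lower in each at an FDR of at most 0.05, with medians of −0.31 and −0.49, and in the interaction 3 were called lower, against 0.963% of all genes, with a median of −0.58. Among WY mice, WY1 was lowest in every motor neuron marker except Prph, as in Chat (3.08 in WY1, 3.72 in WY2 and WY3). This list was not counted without WY1, whose removal took the lower calls among all genes in the interaction from 175 to 78. Endothelial markers gave 0 of 6 in both, with 1 and 5 at an unadjusted p under 0.05 in limma and 0 and 4 lower at an FDR of at most 0.05, although without MO5 1 was lower in WO vs. MO. Meningeal fibroblast markers gave 0 of 6 in both, with 1 and 0 at an unadjusted p under 0.05 in limma. Of 5 Schwann cell markers, 1 (Mal, also made by oligodendrocytes) was lower in MY vs. MO, against 0.787% of all genes. In WO vs. MO 0 were called, with 0 at an unadjusted p under 0.05 in limma. Of the 5 sex-linked genes, 0 were called in either comparison by limma, with 0 and 0 at an unadjusted p under 0.05.

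Across the 16 mice, the 7 genes that were higher at the end stage rose and fell together, with a Pearson r between 0.74 (Il1b and Il1r1) and 0.95 (Il1a and Il1rn) for their 21 pairs. In the 11 mice outside MO, r ranged from −0.14 to 0.73, so that the likeness over all mice largely reflects the step between MO and the other groups. The genes most like each member over 16 mice were Klrb1b, Spint1 and Hpgd for Il1a (r = 0.98, 0.98 and 0.97) and Bcl2a1d, 5430427O19Rik and Tnfsf8 for Il1b (0.97, 0.95 and 0.95). For the antagonists they were S1pr3, Pdcd1 and Ccl4 for Il1rn (r = 0.98, 0.98 and 0.97) and Dhrs3, Efemp2 and Ltbr for Il18bp (0.96, 0.96 and 0.95). Il1r1 was most like Cmtm3, Trim14 and Cebpd (r = 0.97, 0.96 and 0.96), and Il1rap, after Ugt8a, most like Magt1 and Lrrn1 (0.96 and 0.96). For Il1rl2 the genes were Casp8, Baz1a and Tuba1c (r = 0.97, 0.96 and 0.95), and for Irak4 they were Syk, Ptbp3 and Clcf1 (0.97, 0.97 and 0.97). The likeness was weaker for Il18, with H1fx and Uqcrfs1 among the genes most like it (r = 0.86 and 0.85), and for Il33, with Hic1, Dtymk and Cox7a1 (0.90, 0.87 and 0.83).

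In the mm10 genome (GENCODE M21), several members lie close together. Il1a (chr2:129299610-129309972, minus strand) and Il1b (chr2:129364570-129371139, minus strand) are neighbours separated by 54597 bases, and Il1rn (chr2:24336853-24351494, plus strand) lies elsewhere on the same chromosome. Il1r1 (chr1:40225080-40317257, plus strand) is next to Il1rl2 (chr1:40324610-40367562, plus strand). The others are Il18 (chr9:50554827-50581840, plus strand), Il33 (chr19:29925114-29960718, plus strand), Il18bp (chr7:102014885-102018690, minus strand), Il1rap (chr16:26581704-26730117, plus strand) and Irak4 (chr15:94543643-94581815, plus strand). Exons of 5 members overlap those of a gene on the opposite strand, by 222 bases for Il1a (Gm14023), 25 for Il1b (Il1bos), 552 for Il1rap (Gm20319), 80 for Il18bp (Numa1) and 395 for Irak4 (Twf1). The libraries were stranded, but whether strand was used when FPKM was computed is not given in the sources used here, so reads of these overlaps may not be separated by gene.

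The 250 bases before the annotated starts of Il1a, Il1b and Il1rn, each higher at the end stage, are shown (RefSeq, GRCm38.p6). They are written 5′ to 3′ on the strand of the gene. Shared regulation of these genes was not tested. Capitals mark matches on either strand. The motif searched was TATAAA for the TATA box and TGANTCA for AP-1. For the core of the PU.1 motif it was GAGGAA, and for C/EBP it was TTGCNNAA, while the NF-κB consensus is given by name only. Il1a is chr2:129309973-129310222 (minus strand), Il1b chr2:129371140-129371389 (minus strand) and Il1rn, of whose 3 listed starts the most upstream is shown, chr2:24336610-24336859 (plus strand).
Il1a: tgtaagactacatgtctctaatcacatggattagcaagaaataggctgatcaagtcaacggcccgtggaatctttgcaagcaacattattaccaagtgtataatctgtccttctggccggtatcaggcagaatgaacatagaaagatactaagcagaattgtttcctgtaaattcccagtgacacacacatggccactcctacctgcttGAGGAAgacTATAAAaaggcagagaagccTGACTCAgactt
Il1b: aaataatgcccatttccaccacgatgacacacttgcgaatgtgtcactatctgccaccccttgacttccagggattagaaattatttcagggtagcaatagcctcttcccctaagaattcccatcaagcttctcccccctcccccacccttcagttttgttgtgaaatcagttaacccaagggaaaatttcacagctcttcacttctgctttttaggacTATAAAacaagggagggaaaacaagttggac
Il1rn: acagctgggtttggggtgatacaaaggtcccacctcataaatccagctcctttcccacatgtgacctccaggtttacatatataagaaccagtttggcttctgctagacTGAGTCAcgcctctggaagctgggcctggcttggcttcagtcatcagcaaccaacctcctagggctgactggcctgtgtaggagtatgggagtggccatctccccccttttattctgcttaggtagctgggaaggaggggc
Both agonist genes have a TATA box match that begins close to the start, 32 bases before it in Il1a and 31 in Il1b, and 12.3% of 32536 distinct promoter windows of this length hold such a match anywhere. Il1a also has a PU.1 core match 41 bases and an AP-1 match 12 bases before the start, found in 23.4% and 6.73% of windows. Il1rn has an AP-1 match 141 bases before the start and no TATA box match. None of these 3 windows matches the C/EBP motif (9.57% of windows) or the NF-κB consensus (7.28%), which says only that these letters are absent from them. All 10 members had at least 1 listed promoter, 14 in all.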

How the data were processed

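Whole spinal cord RNA of 16 mice was sequenced by the authors from stranded mRNA libraries. Per the labels and the methods of the study, Trimmomatic served to clean the reads, TopHat to place them on mm10 and Cufflinks to estimate FPKM. The authors removed genes without expression in many samples, took log2(1 + FPKM) and adjusted it for 2 library batches with ComBat, and these log2 values were used as deposited. Versions, gene annotation and the covariates given to ComBat are not given in the sources used here. Of the deposited values 915 were below 0 and 0 were exactly 0. Read counts were not analysed here, and depth behind a gene is unknown.

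Groups, ages and batches came from the sample labels. limma 3.58.1 in R 4.3.3 (lmFit and eBayes, two-sided) was fitted to all 18167 genes, on the 2 groups of each comparison, or on all 4 for the interaction, with Benjamini-Hochberg adjustment. The procedure was tested on simulated data. Within-mouse differences were compared by exact permutation tests. FPKM was recovered as 2 to the power of the value, minus 1, with negative results set to 0. Python 3.11.15 was used with SciPy 1.17.1. The members, and the 5 pathway and 15 marker lists, were chosen with earlier results of these data known. Named were all members, every listed pathway gene called in MY vs. MO or WO vs. MO (the 4 largest changes per list in full), and the 3 genes most correlated with each member, apart from 1 gene that is not reported here. Alternatives were batch 1 mice only, a batch term (WO vs. MO and the interaction), genes with a mean of at least 1, a pseudocount of 0.1, 1 fit of all groups, quantile normalization, an intensity trend, limma treat against a fold change of 1.2, a replicate block, and each mouse left out.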

Additional observations from a re-analysis of the deposited data

Results flagged for a closer look

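For 6 of the 10 genes the change with age differed between mutant and wild-type mice by the interaction test in limma, each higher at an FDR of at most 0.05, against 10.5% of all genes. The difference of log2 fold changes was 1.07 for Il1a (FDR = 0.0012). It was 0.76 for Il18bp (FDR = 0.0034), 0.61 for Il1r1 (FDR = 0.038) and 0.58 for Il1b (FDR = 0.015). Il1r1 was called in the interaction in 10 of 24 alternative settings. The values were smaller for Il1rn, at 0.43 (FDR = 0.010), and for Irak4, at 0.42 (FDR = 0.0035). Of 24 sets of 5 mice examined for a mouse far from its group, by Dixon's criterion for the 10 genes and 2 within-mouse differences in WO and MO mice, 0 held one, where chance gives about 5%.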

How the results depend on the processing

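Depth behind a gene is unknown, groups of 3 to 5 mice set the precision, and age and batch cannot be told apart among WO mice. Batch 2 held no young mice. The cause of the changes below was not tested, except that fewer genes or mice enter some settings. Across the alternatives, 802 log2 fold changes of members kept their direction and their side of the thresholds (for limma treat, the FDR alone). Of the others, 19 passed them, 31 no longer did and 18 changed sign, all of the last in values that had not been called.

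With a pseudocount of 0.1, 7 members were called in MY vs. MO, 7 in WO vs. MO and 5 in the interaction, and of all genes 1483, 1529 and 1548. With limma treat, 2 were called in MY vs. MO and 1 in the interaction. Members with an FDR of at most 0.05 then numbered 2, 4 (WO vs. MO) and 1. Of all genes, treat called 608 in the interaction and 3 in WY vs. WO. It called 640 higher and 115 lower in MY vs. MO, and 742 and 97 in WO vs. MO. Among genes with a mean of at least 1 (6 members of 13530 genes), 2 members were called in WO vs. MO. Of all these genes, 602 were called higher there and 94 lower. Members with an FDR of at most 0.05 numbered 4 in MY vs. MO, 3 in WO vs. MO and 3 in the interaction. In WY vs. MY, 2 genes were called. After quantile normalization 2 members were called in WO vs. MO, beside 664 of all genes higher and 138 lower. In batch 1 mice, WY vs. WO had 73 genes called and 1 member with an FDR of at most 0.05. WY vs. MY had 4 genes called when all groups were fitted together and 2 with an intensity trend, and 1 other pathway gene was called in WY vs. WO with a pseudocount of 0.1.

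With 1 mouse left out in turn, members called ranged from 3 to 5 in MY vs. MO, 3 to 4 in WO vs. MO and 2 to 4 in the interaction, and were 0 in WY vs. WO and WY vs. MY. Members with an FDR of at most 0.05 ranged from 5 to 8, 7 to 8 and 5 to 8 in the first 3 of these. All genes called ranged from 805 to 1011 in MY vs. MO, 786 to 924 in WO vs. MO, 808 to 1292 in the interaction, 1 to 5 in WY vs. MY, and in WY vs. WO from 7 (without WY3) to 64 (without WO4). Other pathway genes called ranged from 16 to 19 in MY vs. MO and from 17 to 18 in WO vs. MO and the interaction.

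Changes of sign in WY vs. MY were those of Il1r1, at 0.0137 with a pseudocount of 0.1, 0.0076 after quantile normalization and −0.0737 to 0.12 with 1 mouse left out, of Il18bp (−0.21 to 0.0167) and of Il1rn (−0.0175 to 0.0168). In WY vs. WO they were those of Il18 (−0.16 to 0.0166) and Il1rl2 (−0.0202 to 0.0581), and in the interaction those of Il18 (−0.0243 in batch 1 mice, −0.0859 to 0.0900 with 1 mouse left out) and Il33 (−0.28 to 0.0809). Il1rn minus Il1b was 0.13 in MY vs. MO with a pseudocount of 0.1, and in WY vs. WO 0.0361 in batch 1 mice, 0.0834 with that pseudocount, 0.0214 after quantile normalization and −0.0331 to 0.0247 with 1 mouse left out. Il18bp minus Il18 ranged from −0.0396 to 0.15 in WY vs. MY.

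In no comparison did every same-numbered pair of mice correlate above 0.1, and the main fits did not pair the mice. In WY vs. WO, r was 0.38 for number 1, −0.13 for number 2 and 0.19 for number 3. In MY vs. MO each MY mouse correlated best with its own number (r = 0.18, 0.09 and 0.15). With the replicate block, members called were 5 in MY vs. MO, 4 in WO vs. MO, 0 in WY vs. WO, 0 in WY vs. MY and 3 in the interaction, with 7, 8, 0, 0 and 7 at an FDR of at most 0.05. All genes called were then 1108, 840, 63, 1 and 1008, and other pathway genes 19, 18, 0, 0 and 18, in the same order. In MY vs. MO and WY vs. WO the mice numbered 4 and 5 have no partner, so the block also takes them out of the estimate. In MY vs. MO, 841 genes were called higher and 258 lower in batch 1 mice, and 850 and 258 with the block. The batch term was run for WO vs. MO and the interaction, and for no other comparison.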
